A study of Homo sapiens with 8 samples.

Results

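The 8 genes described here encode the MHC class I route of antigen presentation: the light chain B2M, the heavy chains HLA-B, HLA-C and HLA-E, the peptide transporter subunits TAP1 and TAP2, the loading factor TAPBP (tapasin), and NLRC5, a transactivator of class I genes. They were chosen by name from the 56303 genes of the count table, before any filter but with earlier results of these data known. All 8 passed the filter on low counts in every comparison. The libraries came from SK-N-BE(2), an established human neuroblastoma cell line, in which the control arm (sh-NC) carried a control shRNA and the knockdown arm (shMETTL14) a hairpin against METTL14, a subunit of the enzyme complex that places N6-methyladenosine (m6A) on messenger RNA. According to the study's methods, shRNA lines were made with a pLKO.1 lentivirus and selected in puromycin, though the methods do not say this of the sequenced cultures in particular. Each arm had 2 cultures, 8 libraries in all. By the titles, each culture gave an input library and a library of RNA fragments pulled down with an m6A antibody (IP). The labels do not say whether the shMETTL14 cultures numbered 1 and 2 carried the same hairpin or came from separate infections. The p-values rest on the spread between the libraries of these cultures, which may be technical. The tests also partly pool this spread across genes.

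MHC class I molecules show short peptides from inside the cell to CD8+ T cells. Proteasomes cut the peptides, the TAP1 and TAP2 transporter carries them into the endoplasmic reticulum, and tapasin holds an empty heavy chain beside the transporter until a peptide fits. Heavy chains need B2M to fold and to reach the surface. HLA-B and HLA-C present a wide range of peptides, whereas HLA-E mostly presents leader peptides of other class I chains and is read by the NKG2A receptor of natural killer cells. NLRC5 is the class I transactivator, which works through a complex of RFX, CREB and NFY proteins on class I promoters, and interferon gamma raises the whole set, in part through IRF1. Neuroblastoma is known for low surface class I.

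Total counts per library ran from 32027379 to 47205265. METTL14, the target of the shRNA, fell by 1.79 on the log2 scale in the input (SE 0.0663, adjusted p = 1.28e-15), and every fit without 1 culture kept it between -1.84 and -1.74. Of 8 markers of adrenergic neuroblastoma, all were measured, and MYCN, the oncogene amplified in this line, stood at 4338 CPM (counts scaled to a common library size with edgeR's TMM factors) in sh-NC input and 4293 in shMETTL14 input. HAND2, GATA3, ISL1, DBH and TH, 5 of the 8, were higher in shMETTL14 and none was lower, though HAND2 had an adjusted p of 0.0623 without shMETTL14 culture 1 and 0.0546 without shMETTL14 culture 2. Over all genes tested in the input, 11.7% were called higher and 12.3% lower. Of 4 leukocyte markers, LYZ had no count in any input library and CD3E had at most 4 counts in any library. The other markers were counted in every input library, PTPRC with 24 to 28 counts and CD14 with 37 to 52 counts. The summed leukocyte level was 2.01 to 2.05 CPM in sh-NC input and 1.49 to 1.91 CPM in shMETTL14 input. Summed endothelial and fibroblast markers were 103 to 108 CPM and 95.3 to 99.6 CPM in these inputs, with COL1A1 lower by a log2 value of -0.67 and DCN higher by 1.33 in shMETTL14. The part of these markers in the results below was not tested.

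The promoters of 6 of the 8 genes were found in the RefSeq table of GRCh38.p14, and they are shown because class I genes share a few short regulatory elements. Each line below is the 150 bases before the start of the RefSeq gene, 5′ to 3′ on the strand of the gene. Capitals mark 4 motifs, searched on both strands: the interferon-stimulated response element core (GAAA, any 2 bases, GAAA), the CCAAT box bound by NFY (CCAAT or ATTGG), the CRE half-site bound by CREB (TGACG or CGTCA), and a kappaB site (GGGA, any 4 bases, CCC). The bases are those of the reference genome, and the alleles of SK-N-BE(2) may differ.

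B2M promoter, chr15:44711367-44711516, plus strand: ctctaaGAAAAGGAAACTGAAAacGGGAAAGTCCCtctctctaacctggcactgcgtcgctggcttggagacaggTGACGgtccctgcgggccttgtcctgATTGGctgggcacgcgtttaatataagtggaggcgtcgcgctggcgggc
HLA-B promoter, chr6:31357180-31357329, minus strand: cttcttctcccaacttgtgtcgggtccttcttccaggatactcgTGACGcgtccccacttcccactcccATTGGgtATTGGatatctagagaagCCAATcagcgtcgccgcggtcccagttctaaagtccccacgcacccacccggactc
HLA-C promoter, chr6:31272093-31272242, minus strand: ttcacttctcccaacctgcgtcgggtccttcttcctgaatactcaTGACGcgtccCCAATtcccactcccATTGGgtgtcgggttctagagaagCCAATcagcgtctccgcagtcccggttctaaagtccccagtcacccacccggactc
TAP1 promoter, chr6:32853705-32853854, minus strand: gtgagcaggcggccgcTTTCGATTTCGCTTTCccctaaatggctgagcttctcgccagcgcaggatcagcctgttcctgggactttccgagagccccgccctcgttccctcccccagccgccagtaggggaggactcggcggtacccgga
TAP2 promoter, chr6:32838740-32838889, minus strand: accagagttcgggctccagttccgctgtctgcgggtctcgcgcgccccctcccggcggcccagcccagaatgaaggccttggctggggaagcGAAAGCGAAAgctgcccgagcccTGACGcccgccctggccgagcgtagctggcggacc
TAPBP promoter, chr6:33314079-33314228, minus strand: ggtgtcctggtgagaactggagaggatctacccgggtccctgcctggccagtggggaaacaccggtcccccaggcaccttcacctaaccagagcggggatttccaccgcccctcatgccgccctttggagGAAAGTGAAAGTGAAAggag

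Over the full RefSeq window, 250 bases before to 50 after the start, the interferon element core was present in 4 of these 6 genes, namely B2M, TAP1, TAP2 and TAPBP, and in 3.57% of 35116 promoters. Matches to this core overlapped each other in B2M, TAP1 and TAPBP, and no 2 different motifs overlapped. The CCAAT box was present in 4 of 6 genes (B2M, HLA-B, HLA-C and TAP1) against 34.6% of promoters, and the CRE half-site in 4 of 6 (B2M, HLA-B, HLA-C and TAP2) against 24.6%. The kappaB letters were present in B2M and TAP1, 2 of 6, against 7.97% of promoters. In TAP1 the CCAAT and kappaB letters lay upstream of the bases shown. The counts are per gene, whereas the shares are per promoter, and the 6 genes have 7 promoters in RefSeq. The further one, a second TAP1 promoter that is not shown, held none of the 4 motifs. The HLA-B and HLA-C promoters were alike at 269 of 304 aligned positions (88.5%), while every other pair was alike at 48.6% to 52.3%. A match of letters is a description and does not show a working site. The fixed patterns pass over variant letters, so a gene without a match is not shown to lack the element.

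In input RNA, which measures transcript abundance, HLA-E, B2M, NLRC5 and TAPBP were lower in shMETTL14 than in sh-NC, and none of the 8 genes was higher. The falls were modest, between -0.47 and -0.21 on the log2 scale. The classical heavy chains HLA-B and HLA-C and both transporter subunits did not pass the test. Genes were tested with the quasi-likelihood method of edgeR, with Benjamini-Hochberg adjusted p-values over all 22245 genes tested and a threshold of 0.05. It called 12.3% of all genes lower and 11.7% higher, against 4 of 8 and 0 of 8 here. Because the 8 genes were chosen with earlier results of these data known, contrasts with all genes, here and below, are descriptions. The median log2 difference of the 8 genes was -0.17, beside 0.00 over all genes tested. For a single gene, 2 cultures per arm do not let an exact permutation test, two-sided, go below p = 0.333, and none was run. Arms without overlap are therefore only described, and the share of all genes that separate in this way was not counted. In RNA from whole cultures, fewer expressing cells and less RNA per cell cannot be told apart.

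B2M, on chromosome 15 from 44711477 to 44718877 (plus strand, GRCh38, 6089 exonic bases), encodes the light chain shared by all class I molecules. Its input level was 233 and 226 CPM in sh-NC against 180.3 and 176 CPM in shMETTL14. Both control cultures were above both knockdown cultures. The log2 difference was -0.36 (SE 0.0360, 95% interval -0.43 to -0.28, adjusted p = 5.20e-08), and B2M passed the threshold under every alternative setting and with each culture left out.

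HLA-E, on chromosome 6 from 30489467 to 30494205 (plus strand, 2975 exonic bases), had the largest fall of the 8. Its input level was 43.8 and 43.1 CPM in sh-NC and 30.2 and 32.3 CPM in shMETTL14, with no overlap between the arms. The log2 difference was -0.47 (SE 0.0591, 95% interval -0.59 to -0.35, adjusted p = 1.63e-06). HLA-E also passed under every alternative setting in which it was tested as a row of its own and with each culture left out. It lay at percentile 8.47 of input differences over all genes tested.

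HLA-B, on chromosome 6 from 31353872 to 31357188 (minus strand, 3012 exonic bases), stood at 63.9 and 68.3 CPM in sh-NC input and 68.0 and 70.7 CPM in shMETTL14 input. These ranges overlapped, and the log2 difference was 0.08 (SE 0.0487, 95% interval -0.03 to 0.18, adjusted p = 0.301). HLA-C, on chromosome 6 from 31268749 to 31272130 (minus strand, 2507 exonic bases), stood at 114 and 112 CPM in sh-NC and 108 and 111 CPM in shMETTL14, without overlap. Its log2 difference was -0.04 (SE 0.0404, 95% interval -0.12 to 0.04, adjusted p = 0.541). The intervals of both genes lie wholly above that of HLA-E.

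Heavy chain genes are near-identical over long stretches, and how reads that fit several of them were counted is not given in the sources used here. The values of HLA-B, HLA-C and HLA-E may therefore hold reads of other heavy chain genes or pseudogenes.

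Ratios within a library need no scaling factor. HLA-E had 0.685 and 0.632 reads per HLA-B read in sh-NC input against 0.444 and 0.457 in shMETTL14 input. It had 0.386 and 0.386 reads per HLA-C read in sh-NC input against 0.281 and 0.292 in shMETTL14 input. In both ratios the control cultures were above the knockdown cultures, and the ratio of arm means was 0.684 for HLA-E over HLA-B and 0.742 for HLA-E over HLA-C.

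TAP1 and TAP2 lie in the class II region of chromosome 6, from 32845209 to 32853978 (4578 exonic bases) and from 32821833 to 32838780 (6390 exonic bases), both on the minus strand. TAP1 stood at 10.9 and 10.3 CPM in sh-NC input and 10.6 and 8.95 CPM in shMETTL14 input. The arms overlapped, and the log2 difference was -0.11 (SE 0.108, 95% interval -0.33 to 0.12, adjusted p = 0.538). Without shMETTL14 culture 2 it was 0.01, so its direction rested on that culture. TAP2 stood at 38.9 and 37.3 CPM in sh-NC and 32.8 and 36.2 CPM in shMETTL14, without overlap. Its log2 difference was -0.14 (SE 0.0621, 95% interval -0.27 to -0.01, adjusted p = 0.119), so it was not called. It was -0.07 without shMETTL14 culture 1 and -0.21 without shMETTL14 culture 2.

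TAPBP, on chromosome 6 from 33299694 to 33314387 (minus strand, 5056 exonic bases), encodes tapasin. Its input level was 21.6 and 23.3 CPM in sh-NC and 19.5 and 19.2 CPM in shMETTL14, without overlap. The log2 difference was -0.21 (SE 0.0750, 95% interval -0.36 to -0.05, adjusted p = 0.0436), close to the threshold. The call was lost with DESeq2 (adjusted p = 0.136), with no filter (0.191), with library size as the only scaling (0.0557), and without sh-NC culture 2 (0.266), shMETTL14 culture 1 (0.178) or shMETTL14 culture 2 (0.260), while the log2 value stayed between -0.27 and -0.15.

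NLRC5 lies on chromosome 16, and its row spans 56989485 to 57040718 (plus strand, 12386 exonic bases in 21 blocks), whereas the RefSeq gene runs on to 57083520, so reads beyond the row are not in its count. Its input level was 15.5 and 16.1 CPM in sh-NC and 12.6 and 12.3 CPM in shMETTL14, again without overlap. The log2 difference was -0.33 (SE 0.0877, 95% interval -0.51 to -0.15, adjusted p = 0.00686). The adjusted p was 0.0692 with no filter, 0.0594 without shMETTL14 culture 1 and 0.127 without shMETTL14 culture 2, with log2 values of -0.32, -0.35 and -0.32.

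Some rows share exonic bases with another gene, and the strand setting of the counting is not given in the sources used here, although the library kit marks strand. HLA-B shares 542 bases (18.0% of its exonic length) with XXbac-BPG248L24.12 on the opposite strand, and TAP1 shares 456 bases (9.96%) with PSMB8-AS1 on the opposite strand. TAP2 shares 2064 bases (32.3%) with XXbac-BPG246D15.9 on its own strand. If the reads of the overlapping gene lay evenly along it, those in the shared bases would equal 57.5% of the TAP2 counts, 9.30% of the HLA-B counts and 9.49% of the TAP1 counts. The values of these 3 genes, and most of all those of TAP2, are uncertain, while the other 5 share no exonic bases. Genes of the lists below also share bases. Reckoned in the same way, the overlapping reads would equal 21.6% of HLA-F counts (HCG4P11, opposite strand). They would equal 17.3% of PSMB9 counts (PSMB8-AS1, own strand) and 13.5% of PSMB10 counts (CTC-479C5.12, own strand).

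The level per kilobase of exon allows levels of different genes to be compared as far as the listed lengths hold. It fell in the order HLA-C, B2M, HLA-B, HLA-E, TAP2, TAPBP, TAP1 and NLRC5 in both arms. The sh-NC input means were 44.9 ± 0.522, 37.7 ± 0.806, 21.9 ± 1.01, 14.6 ± 0.166, 5.96 ± 0.174, 4.44 ± 0.244, 2.31 ± 0.0879 and 1.27 ± 0.0332 CPM per kilobase in that order (SD, n = 2 cultures). Each gene was above the next in both cultures of both arms, so no neighbours in the order overlapped. HLA-C lay at percentile 95.7 of the genes tested and NLRC5 at percentile 36.2. Lengths are those of all listed exons, and genes with long unused exons are understated. The order of the first 2 depends on these lengths, 6089 bases for B2M and 2507 for HLA-C. Before division by length B2M stood higher in sh-NC input, at 230 CPM against 113 CPM for HLA-C.

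The m6A antibody recovered fragments of 6 of the 8 transcripts less than those of the average gene. IP over input was below 1 for B2M, HLA-B, HLA-C, HLA-E, TAP1 and TAP2 in every culture, and TAPBP and NLRC5 were nearest to 1. In sh-NC cells 6 of 8 genes were called lower in IP than in input and 0 higher, where 29.8% of 22953 genes tested were lower and 29.1% higher. In shMETTL14 cells the same 6 genes were called lower and 0 higher, where 29.1% of all genes were lower and 28.9% higher. The median log2 ratio was -0.55 in sh-NC and -0.54 in shMETTL14 over the 8 genes, beside -0.01 over all genes in each arm. The ratio is relative to the other genes of the library and is counted over the whole gene, so it neither gives the share of modified molecules nor shows that a transcript lacks m6A at a site.

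B2M had an IP over input of 0.575 and 0.604 in sh-NC against 0.576 and 0.583 in shMETTL14. Its log2 ratio was -0.76 (SE 0.0399, adjusted p = 1.36e-22) in sh-NC and -0.79 (SE 0.0410, adjusted p = 1.41e-22) in shMETTL14. The knockdown cultures lay within the range of the controls.

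Among the heavy chains, HLA-B was lowest, with 0.584 and 0.543 in sh-NC against 0.544 and 0.562 in shMETTL14. HLA-E followed with 0.647 and 0.636 in sh-NC against 0.692 and 0.615 in shMETTL14, and HLA-C with 0.742 and 0.763 in sh-NC against 0.769 and 0.744 in shMETTL14. In the same sequence their log2 ratios in sh-NC were -0.83, -0.64 and -0.41, and in shMETTL14 -0.85, -0.62 and -0.40. All 6 passed the threshold, and the culture ranges of the 2 arms overlapped for each chain.

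TAP1 had the lowest ratio of the 8, 0.469 and 0.335 in sh-NC against 0.425 and 0.524 in shMETTL14, on 105 to 232 IP reads per library. Its log2 ratio was -1.28 (SE 0.136, adjusted p = 1.28e-11) in sh-NC and -1.09 (SE 0.138, adjusted p = 1.62e-09) in shMETTL14. TAP2 had 0.668 and 0.804 in sh-NC against 0.825 and 0.640 in shMETTL14, with log2 ratios of -0.45 and -0.46, both past the threshold. The cultures of TAP2 differed more within an arm than the arms differed from each other.

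TAPBP had 1.00 and 0.910 in sh-NC against 0.881 and 0.943 in shMETTL14, with log2 ratios of -0.07 (adjusted p = 0.483) and -0.13 (adjusted p = 0.152). NLRC5 had 0.867 and 0.907 in sh-NC against 0.847 and 0.940 in shMETTL14, with log2 ratios of -0.18 (adjusted p = 0.0931) and -0.16 (adjusted p = 0.152). Neither was called in either arm with TMM scaling and the filter used, but with at least 10 counts in every library NLRC5 was called lower in sh-NC (adjusted p = 0.0494). With library size as the only scaling both were called lower in both arms.

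Comparing IP over input between knockdown and control asks whether m6A recovery of a transcript moved with METTL14. None of the 8 genes was called, and 0 passed an unadjusted p under 0.05 by edgeR, while DESeq2 also called 0. Over all 22953 genes edgeR called 0% higher and 0.00436% lower, and at an unadjusted p under 0.05 it had 696 higher and 760 lower. The 8 genes are too few to differ clearly from these shares. The log2 changes were -0.02 for B2M (95% interval -0.14 to 0.09), -0.02 for HLA-B (-0.18 to 0.13), 0.01 for HLA-C (-0.12 to 0.13) and 0.02 for HLA-E (-0.17 to 0.21). They were 0.19 for TAP1 (95% interval -0.21 to 0.58), -0.01 for TAP2 (-0.21 to 0.20), -0.07 for TAPBP (-0.29 to 0.15) and 0.02 for NLRC5 (-0.25 to 0.28). Adjusted p-values ran from 0.924 to 0.999. The TAP1 value rested on single cultures: it was 0.47 without sh-NC culture 1, 0.0044 without sh-NC culture 2, 0.34 without shMETTL14 culture 1 and 0.04 without shMETTL14 culture 2. These intervals bound the change relative to other genes, and a loss of m6A by one factor from all transcripts is removed by the scaling and would not be seen.

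**Figure D1:**
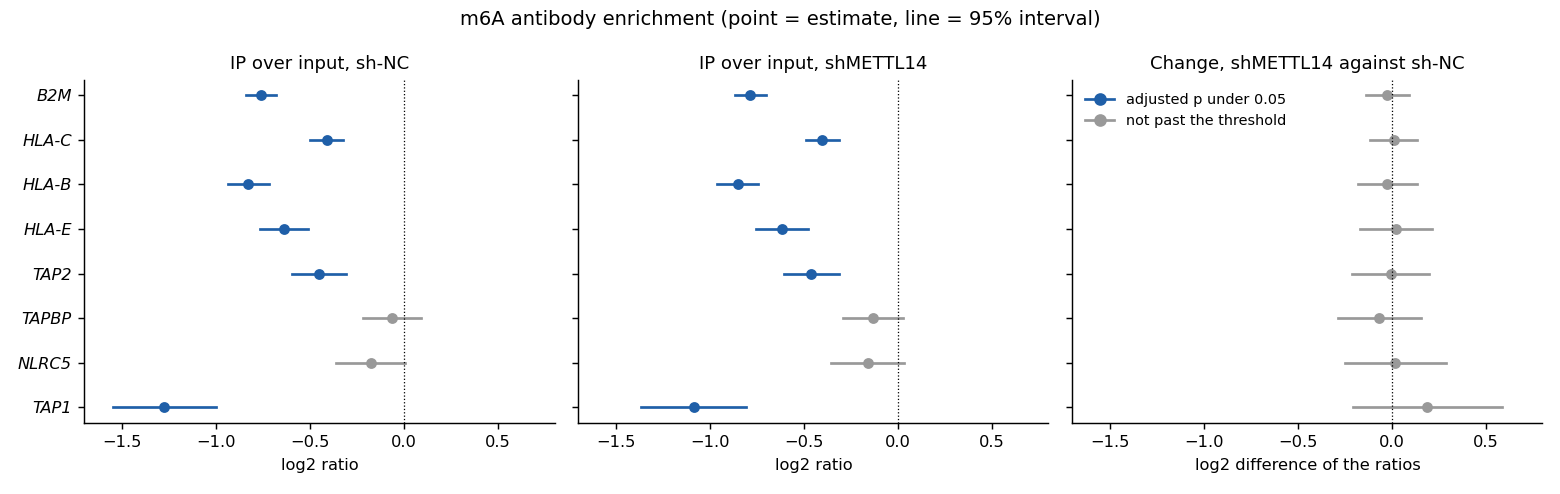
Log2 ratio of IP to input in sh-NC (left) and in shMETTL14 (middle), and the difference of these log2 ratios, shMETTL14 minus sh-NC (right), from 1 edgeR model of 8 libraries. Points are estimates, lines are 95% intervals, and blue marks an adjusted p under 0.05. In the left and middle panels 6 genes are blue and lie below 0, and on the right every interval crosses 0.

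Compared among themselves, the 4 IP libraries showed the same genes lower as the inputs did. The IP log2 difference between shMETTL14 and sh-NC was -0.39 for B2M (adjusted p = 2.35e-09), -0.46 for HLA-E (adjusted p = 5.91e-06), -0.28 for TAPBP (adjusted p = 0.00743) and -0.32 for NLRC5 (adjusted p = 0.0149). These were 4 of 8 genes, where edgeR called 12.6% of 21196 genes lower in the IP libraries. HLA-B (0.04), HLA-C (-0.04), TAP1 (0.08) and TAP2 (-0.15) did not pass. By their titles the IP and input libraries carry the same culture numbers. The IP values are therefore taken as a second reading of the same 4 cultures and not as further replicates.

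The genes around these 8 in the pathway were counted from lists chosen by function, and the counts below are for the input difference. In that comparison 12.3% of all genes tested were called lower and 11.7% higher, and the lists are short beside these shares. Among 7 genes of peptide supply, ERAP1, the aminopeptidase that trims peptides in the endoplasmic reticulum, was the 1 that fell, and none rose. ERAP1 stood at 15.8 and 14.6 CPM in sh-NC and 11.6 and 11.2 CPM in shMETTL14, a log2 difference of -0.41 (SE 0.0918, adjusted p = 0.00166), and without shMETTL14 culture 2 its adjusted p was 0.0975. The immunoproteasome subunits PSMB8 and PSMB10 had log2 differences of -0.15 and -0.03, and PSMB9, whose promoter is shared with TAP1, had 0.02. The proteasome activator subunits PSME1 and PSME2 had -0.09 and 0.01. None of these 5 passed the test.

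Of the 4 loading chaperones, CALR and CANX rose and none fell. CALR (calreticulin), which joins tapasin in the loading complex, stood at 951 and 924 CPM in sh-NC and 1157 and 1048 CPM in shMETTL14, a log2 difference of 0.24 (adjusted p = 1.87e-05). CANX (calnexin), which holds newly made heavy chains, rose by 0.11 (adjusted p = 0.00989), with an adjusted p of 0.266 without shMETTL14 culture 1 and 0.0688 without shMETTL14 culture 2. PDIA3, the disulfide isomerase of the complex, had 0.01, and TAPBPL, a relative of tapasin, had -0.20 (adjusted p = 0.231).

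Of 8 other class I and class I-like chains, 6 were tested and 0 passed by edgeR in either direction, also at an unadjusted p under 0.05. Of all 22245 genes tested, edgeR had 3725 higher and 3850 lower at that unadjusted p. FCGRT, HLA-F, HLA-G and MICB had values of -0.14, 0.02, -0.17 and 0.01. HFE and CD1D were too low to test.

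**Figure D2:**
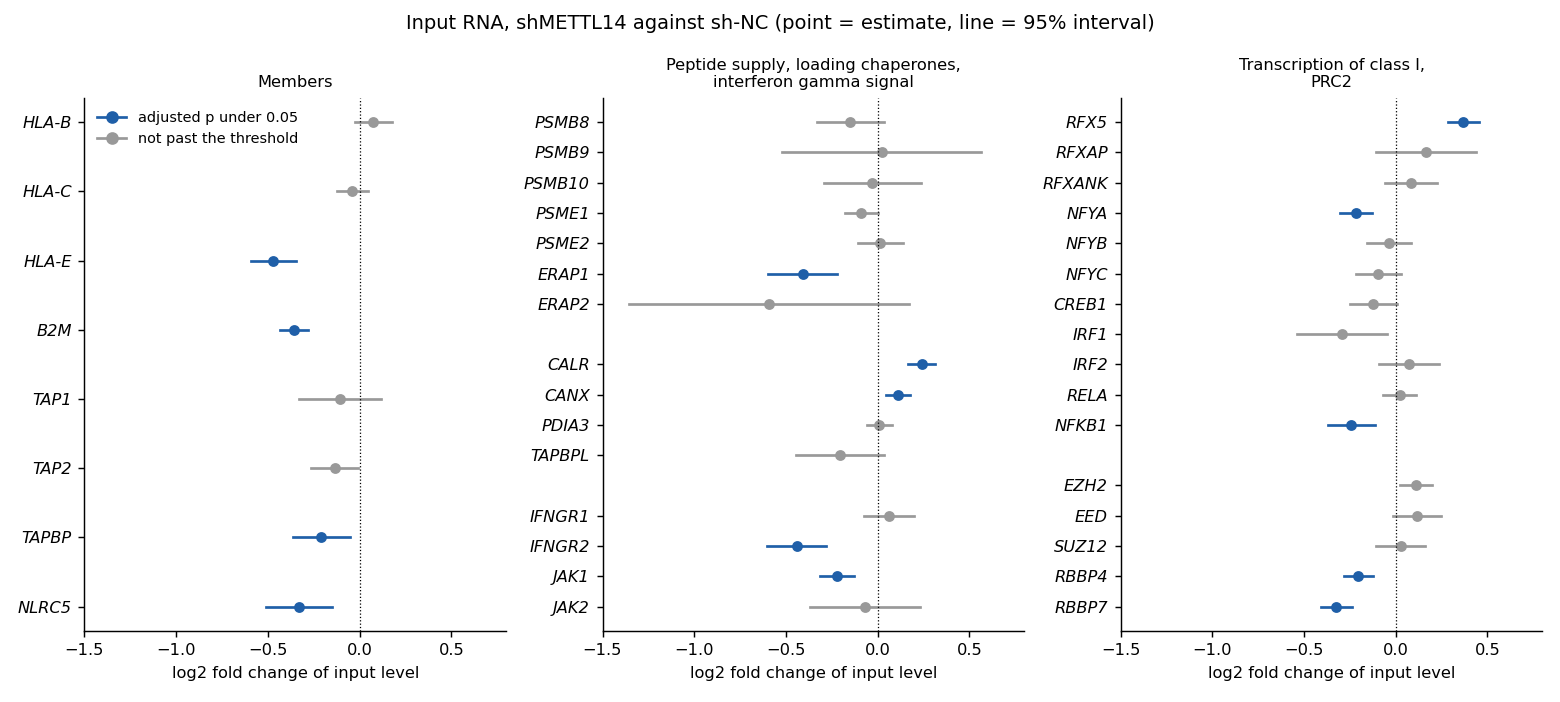
Log2 fold change of input level, shMETTL14 against sh-NC, for the 8 genes (left), for peptide supply, loading chaperones and interferon gamma signalling (middle, from top to bottom), and for transcription factors of class I and PRC2 (right, from top to bottom). Points are estimates, lines are 95% intervals from edgeR, and blue marks an adjusted p under 0.05. B2M, HLA-E, TAPBP and NLRC5 lie below 0, as do JAK1 and IFNGR2, whereas RFX5 and CALR lie above it.

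Among 11 genes for transcription of class I, RFX5 rose, NFYA and NFKB1 fell and 8 did not pass. RFX5, the DNA-binding subunit of the RFX complex, stood at 113 and 107 CPM in sh-NC and 138 and 144 CPM in shMETTL14, a log2 difference of 0.37 (adjusted p = 2.39e-07). NFYA, a subunit of the factor that binds the CCAAT box, changed by -0.22 (adjusted p = 3.78e-04), with 0.0664 without shMETTL14 culture 2. NFKB1, a subunit of the factor that binds kappaB sites, changed by -0.24 (adjusted p = 0.00574), with 0.0787 and 0.110 without shMETTL14 cultures 1 and 2. RELA, CREB1, NFYB, NFYC and RFXANK had values of 0.02, -0.12, -0.04, -0.09 and 0.08. IRF1, which binds the interferon element, had -0.29 (adjusted p = 0.0776).

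Of 4 genes that carry the interferon gamma signal, 2 fell and 0 rose. IFNGR2, a chain of the receptor, stood at 23.6 and 21.6 CPM in sh-NC and 16.7 and 16.4 CPM in shMETTL14, a log2 difference of -0.44 (adjusted p = 1.31e-04, and 0.0543 without shMETTL14 culture 2). JAK1, a kinase on the receptor, changed by -0.22 (adjusted p = 4.61e-04, and 0.0833 without shMETTL14 culture 2). IFNGR1, the chain that binds the cytokine, and JAK2, the second kinase, had 0.06 and -0.07. Their median was -0.14, beside 0.00 over all genes.

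PRC2, a histone methyltransferase complex known to silence class I genes in tumours, was represented by 5 genes, of which 2 fell and 0 rose. The histone-binding subunits RBBP7 and RBBP4, which also belong to other chromatin complexes, had log2 differences of -0.32 (adjusted p = 1.94e-06) and -0.20 (adjusted p = 3.20e-04, and 0.0706 without shMETTL14 culture 2). The catalytic subunit EZH2 had 0.11 (adjusted p = 0.0605), and the core subunits EED and SUZ12 had 0.12 and 0.03. Class II genes, which present peptides from outside the cell, gave 0 calls among 6 tested of 10, also at an unadjusted p under 0.05. At that unadjusted p, 3725 of all 22245 genes tested were higher and 3850 lower. The summed class II level was 25.6 to 26.4 CPM in sh-NC input and 26.2 to 26.4 CPM in shMETTL14 input. CIITA, the class II counterpart of NLRC5, was the highest of them at 11.6 CPM in sh-NC and 11.4 CPM in shMETTL14, and HLA-DPB1, HLA-DPA1, HLA-DMA and CD74 had log2 differences of -0.09, 0.35, 0.19 and 0.38. HLA-DMA shares 55 bases with BRD2 on the opposite strand. Spread evenly, BRD2 reads there would equal 276% of HLA-DMA counts, so its value and its part of the sum are uncertain.

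For 16441 genes with a mean of at least 50 counts, the pattern over the 8 libraries was compared with that of B2M as the root mean square distance of centred log2 CPM. The 3 nearest were MSH5-SAPCD1, a readthrough transcript at a distance of 0.0386, PCNA, the sliding clamp of DNA replication, at 0.0482, and CDC25B, a cell cycle phosphatase, at 0.0503. HLA-E, the nearest of the other 7 antigen presentation genes, ranked 63 at a distance of 0.0968. TAP2 ranked 1365, HLA-B 1582, HLA-C 2165, TAP1 3469, NLRC5 3725 and TAPBP 4836. The 8 libraries share 4 cultures, and the distances are a description.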

How the data were processed

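RNA of SK-N-BE(2) cells was measured by MeRIP-seq in 8 libraries, and samples were grouped by their titles into sh-NC and shMETTL14, IP and input. The authors deposited raw read counts per gene, with exon coordinates read here as GRCh38, the build in the submitters' processing notes. Those notes name Trimmomatic 0.36. Per the labels, RNA was selected for poly(A), fragmented and made into stranded libraries with unique molecular identifiers. The aligner, the counting tool and the handling of identifiers, strand and reads with several matches are not given in the sources used here, and duplicates kept in the counts would add noise.

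The analysis used edgeR 4.0.16 under R 4.3.3: filterByExpr, TMM factors, glmQLFit and glmQLFTest, Benjamini-Hochberg adjustment over all genes tested and a threshold of 0.05. The input difference used the 4 input libraries. IP over input in each arm and its change used 1 model of 8 libraries. CPM values use TMM factors of all 8 libraries. SE was obtained by dividing the size of the log2 fold change by the root of its F statistic. Replicates differed by more than sampling noise (mean chi-square per gene 2.43 to 4.00), and none was a repeated deposit. Input counts per library ran from 372 to 450 for TAP1 and from 7369 to 8329 for B2M, so counting error weighs more for the lower genes. Having 2 cultures per arm also limits precision.

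The members and lists were chosen with earlier results of these data known. Named are the 8 genes, list genes past the threshold in the input difference and up to 5 others per list by input level, the 3 genes nearest to B2M, METTL14, and marker genes; IRF1 was named after its value was seen. Alternatives were no filter, RLE factors, DESeq2 1.42.0, library size only, at least 10 counts in every library, a replicate block, each culture left out, class I rows summed, all 8 libraries in 1 model for the input difference, the IP libraries alone, and, chosen after seeing the data, rows sharing exonic bases left out. Some items are not reported here, and list counts leave them out. Promoters come from RefSeq. Figures were drawn with matplotlib.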

Additional observations from a re-analysis of the deposited data

How the results depend on the processing

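The number of genes called lower in the input was 2 with no filter and 2 to 4 with each culture left out; it was 2, HLA-E and B2M, without either shMETTL14 culture. With rows sharing exonic bases left out, 3 genes were called in IP over input in sh-NC and 3 in shMETTL14, since HLA-B, TAP1 and TAP2 were then not tested. The IP libraries alone, which measure a difference of IP level and not a change of IP over input, gave 4 calls, and values of 0.0429 for HLA-B, -0.0402 for HLA-C, -0.46 for HLA-E and -0.32 for NLRC5. The change of IP over input crossed 0 for HLA-C with no filter (-0.00356) and for TAP2 with library size only (0.0007002). With each culture left out, TAP1 in the input ran from -0.24 to 0.00541, TAPBP in IP over input in sh-NC from -0.12 to 0.00939, and the change of IP over input from -0.0784 to 0.0103 for HLA-B, -0.0309 to 0.0307 for HLA-C, -0.0659 to 0.11 for HLA-E, -0.0775 to 0.00905 for B2M, -0.19 to 0.17 for TAP2, 0.0044 to 0.47 for TAP1 and -0.0625 to 0.0861 for NLRC5. The cause was not tested. NLRC5 passed in IP over input in sh-NC with at least 10 counts in every library (adjusted p = 0.0494). Library size as the only scaling moved the median of all genes in IP over input to -0.14 in sh-NC and -0.13 in shMETTL14.

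The replicate block changed no call: 4 genes in the input, 6 in IP over input in each arm and 0 in its change. Same-numbered inputs of the 2 arms deviated together by r = -0.0146 across 22953 genes, and IP and input of a culture by -0.00792 in sh-NC and -0.00621 in shMETTL14. An arm left with 1 culture borrowed the spread of the rest. Depth was 105 to 232 IP reads for TAP1, which had the widest intervals.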
